A study of Mus musculus with 18 samples.

Results

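The RPE/choroid of mice whose vitreous had been injected with balanced salt solution (BSS), the steroid-free carrier, was compared between day 30 and day 7 after the injection. This comparison addresses how expression changed over time in eyes that received no steroid. Members were defined by their labels: the 3 arrays titled BSS at day 30 and the 3 titled BSS at day 7, which are 6 of the 18 arrays of the series. The comparison itself was chosen with earlier results of these data known. The other 12 arrays hold eyes injected with dexamethasone (Dex) or triamcinolone acetonide (TAA) and collected on the same days. Both BSS groups were male C57BL6/J mice, labelled as 2 months old at either day, without a transgene or a mutation, and each animal had 1 BSS injection at day 0 under ketamine and xylazine. BSS day 30 animals were sampled 30 days after that injection and BSS day 7 animals 7 days after it, in the morning in both cases. According to the methods all animals were injected on the same day, so the time since the injection, the age of the animal and the date of collection cannot be told apart. The animals with the best RNA of each group were hybridized, the neural retina was peeled off before lysis, and much of the choroid may have stayed on the sclera that was removed. Replicates are labelled as separate biological samples.

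RNA was hybridized to Affymetrix mouse arrays that carry 45101 probe sets, groups of short oligonucleotides designed to report transcripts. Of these, 932 are annotated to several genes and 9211 to none. The deposited values are log2 signals from which the median of the probe set over all 18 arrays had been subtracted. A value of 1 therefore means 2-fold above that median, and the values hold no expression level, so the presence of a tissue could not be checked by the level of its markers, only by how the markers differ between arrays. Values are listed in the order of replicates 1, 2 and 3. Differences are BSS day 30 minus BSS day 7 on this log2 scale, and SE is their standard error from limma, a linear model that was fitted to all 18 arrays and pools the spread of the 6 groups. A probe set was called where its Benjamini-Hochberg adjusted p-value was under 0.05, with the adjustment over the whole array. The weaker criteria of the authors (p without adjustment up to 0.05 and at least 1.5-fold) are given beside it as the thresholds of the study. Precision is limited by having 3 arrays a group, where an exact two-sided permutation test cannot go below p = 0.1, and p-values measure the spread between these animals only. Genes are represented by 1 probe set each.

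The retinal pigment epithelium (RPE) is a pigmented cell layer that recycles the visual chromophore, engulfs the shed tips of photoreceptors and forms the barrier to the choroid, the vessel bed behind it. Like most tissues it holds a circadian clock, in which Bmal1 (encoded by Arntl) pairs with Clock or Npas2 and switches on E-box genes. Among these are the Per and Cry repressors, which feed back on that pair, and the Rev-erbs Nr1d1 and Nr1d2, which repress Arntl, while Ror proteins activate it through the same RORE elements. Dbp, Tef and Hlf activate genes with a D-box and Nfil3 represses them. In peripheral tissues of the mouse, Arntl RNA and Per RNA peak at opposite times of day, and engulfment by the RPE has a daily rhythm.

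The start regions of 5 of the clock genes described below are shown, with the matched motif in capitals. All 5 genes carry such elements and met the thresholds of the study. Clock genes that did not meet them, such as Per1, Cry1 and Cry2, carry such elements too and are not shown. The sequences are RefSeq windows of 300 bases around an annotated start in assembly GRCm38.p6, written 5′ to 3′ along the strand of the gene. Arntl (chr7:113207261-113207560, plus strand) and Nfil3 (chr13:52980990-52981289, minus strand) hold the half-site AGGTCA of a RORE, in Nfil3 on the opposite strand. Per3 (chr4:151044616-151044915, minus strand) holds 2 D-boxes (TTANGTAA), Nr1d1 (chr11:98775328-98775627, minus strand) an E-box variant (CACGTT, read on the opposite strand) and Tef (chr15:81802423-81802722, plus strand) an E-box (CACGTG).
Arntl: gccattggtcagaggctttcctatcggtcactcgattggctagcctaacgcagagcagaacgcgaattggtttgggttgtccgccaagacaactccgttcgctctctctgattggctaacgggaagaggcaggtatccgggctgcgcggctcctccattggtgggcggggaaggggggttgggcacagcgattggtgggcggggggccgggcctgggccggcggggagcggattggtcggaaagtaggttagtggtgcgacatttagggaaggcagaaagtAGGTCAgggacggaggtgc
Nfil3: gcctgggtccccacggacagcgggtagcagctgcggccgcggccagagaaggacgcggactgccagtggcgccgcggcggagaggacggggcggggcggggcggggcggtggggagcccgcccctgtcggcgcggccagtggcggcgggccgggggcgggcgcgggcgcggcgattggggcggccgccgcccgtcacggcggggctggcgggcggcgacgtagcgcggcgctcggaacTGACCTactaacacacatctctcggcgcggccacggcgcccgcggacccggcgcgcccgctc
Per3: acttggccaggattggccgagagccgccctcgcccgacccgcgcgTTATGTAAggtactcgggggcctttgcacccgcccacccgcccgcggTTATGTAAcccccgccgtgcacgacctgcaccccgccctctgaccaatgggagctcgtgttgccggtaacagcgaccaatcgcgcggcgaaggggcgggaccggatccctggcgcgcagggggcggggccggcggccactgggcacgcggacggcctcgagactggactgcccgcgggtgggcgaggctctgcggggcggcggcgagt
Nr1d1: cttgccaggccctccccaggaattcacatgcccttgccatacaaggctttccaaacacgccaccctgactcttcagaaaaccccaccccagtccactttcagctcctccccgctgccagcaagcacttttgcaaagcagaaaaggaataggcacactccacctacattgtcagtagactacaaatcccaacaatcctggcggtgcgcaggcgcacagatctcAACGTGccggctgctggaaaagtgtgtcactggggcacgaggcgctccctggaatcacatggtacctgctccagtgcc
Tef: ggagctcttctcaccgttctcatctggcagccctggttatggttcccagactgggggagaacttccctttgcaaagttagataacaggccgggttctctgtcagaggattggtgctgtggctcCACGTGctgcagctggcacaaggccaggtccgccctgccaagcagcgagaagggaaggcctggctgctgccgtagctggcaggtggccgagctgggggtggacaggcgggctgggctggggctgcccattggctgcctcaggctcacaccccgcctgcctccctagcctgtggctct
Both strands were searched and none of these motifs overlapped another. Of 32851 mouse start windows of that length, 16.3% hold AGGTCA, 7.15% CACGTG, 4.68% CACGTT and 2.32% TTANGTAA, so that a match in a window is a description of its letters and not of binding. Among the 10 windows of the 6 activator genes, 2 held AGGTCA, that of Arntl shown here and 1 of Clock. CACGTG was found in 3 of 8 windows of the Rev-erb, D-box binding and Dec genes, which belong to Tef and Bhlhe41, and in 2 of 5 windows of the Per and Cry genes, those of Per1 and Cry1.

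The arrays of a day did not all resemble each other. BSS day 30 replicate 2 correlated with replicates 1 and 3 of its own group at r = -0.19 and -0.47 over all probe sets, while those other arrays correlated with each other at 0.69. Its r with BSS day 7 replicate 2 was 0.27, and that array in turn had r = -0.12 and -0.03 with replicates 1 and 3 of BSS day 7, which correlated with each other at 0.40. Replicates 1 and 3 of BSS day 30 had an SD over probe sets of 0.392 and 0.416, against 0.25 for replicate 2 of that day and 0.192 to 0.258 on the BSS day 7 arrays. The control probe sets for the 3′ and 5′ ends of Gapdh, whose difference grows as RNA degrades, also varied: 3′ minus 5′ was -0.15, 0.71 and -0.58 on the BSS day 30 arrays, against 0.93, -0.09 and 0.52 on the BSS day 7 arrays, and the groups overlapped. Beta-actin gave 0.07, 0.70 and -0.43 at BSS day 30 and 0.74, -0.23 and 0.58 at BSS day 7. In array weights estimated from the residuals, BSS day 30 replicate 2 had the lowest of all 18, 0.413. Results are given with all 6 arrays and, where it matters, without BSS day 30 replicate 2.

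One gene, Arntl, passed the adjusted threshold between BSS day 30 and BSS day 7, and it rose. This is 1 of 45101 probe sets, or 0.00222%. The thresholds of the study were met by 1383 probe sets (3.07%), of which 995 had higher values at BSS day 30 (2.21%) and 388 lower ones (0.86%), and 5123 passed the 0.05 level before adjustment, beside 2255 to be expected if nothing differed. With 1 probe set a gene, 1 of 18194 genes was called (0.0055%) and 913 met the thresholds of the study (5.02%). Quantile normalization was applied to the centred values and gives all arrays the same distribution. It turned the split at these thresholds into 373 higher and 357 lower probe sets. Arrays with a wide SD are narrowed by it, so smaller differences on them follow in part from its construction. Without BSS day 30 replicate 2, limma called 1820 probe sets (4.04%), 1172 higher and 648 lower, and 3103 met the thresholds of the study (6.88%), which were 5.47% and 10.5% of genes. In that fit 1179 of 18194 genes met these thresholds upward and 731 downward, which is the background to set beside its list counts. The count of probe sets at the thresholds of the study was 465 without BSS day 30 replicate 1, 749 without BSS day 30 replicate 3, where 302 were higher and 447 lower, and 1071 to 1401 without 1 of the BSS day 7 arrays. Of all 18194 genes, 203 met them upward and 97 downward without BSS day 30 replicate 1, and 174 and 298 without BSS day 30 replicate 3. Without BSS day 7 replicate 1, 2 or 3, 420, 558 and 469 genes met them upward and 298, 312 and 230 downward. Arntl was not called without BSS day 30 replicate 1 or replicate 3 (adjusted p = 0.0704 and 0.074) nor without BSS day 7 replicate 1 (adjusted p = 0.0874).

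**Figure D1:**
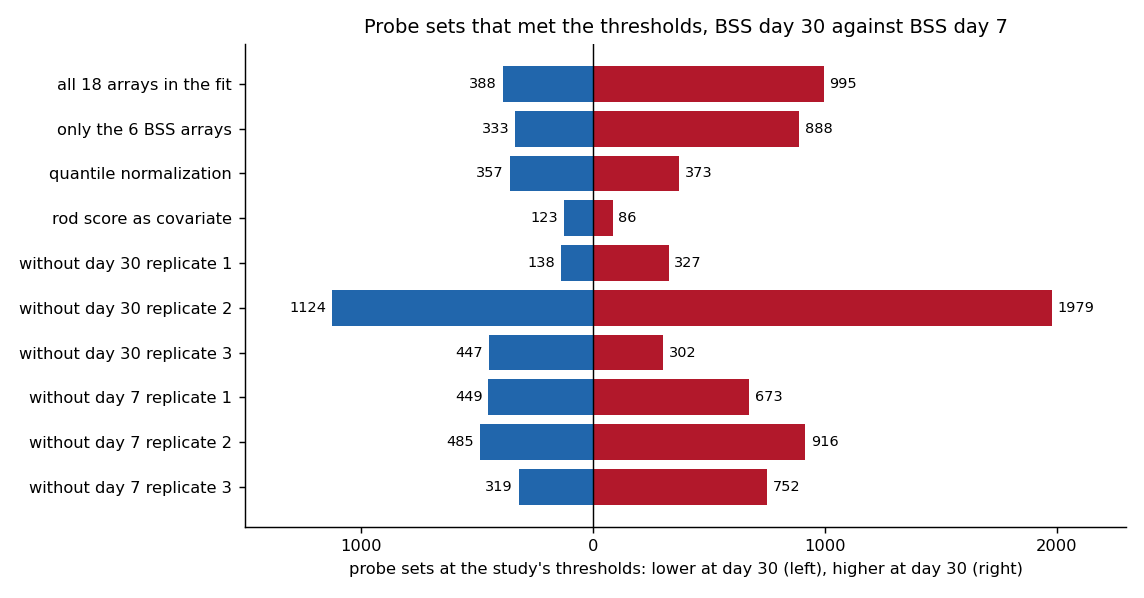
Probe sets at the study's thresholds in BSS day 30 against BSS day 7 (x axis, number of probe sets, higher at day 30 to the right in red and lower to the left in blue) under 10 settings of the fit (y axis). The 995 higher and 388 lower probe sets with all arrays became 1979 and 1124 without day 30 replicate 2, and 327 and 138 without day 30 replicate 1.

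The called gene belongs to the circadian clock, and further clock genes kept the days apart on all 6 arrays. Groups that do not overlap were frequent, found in 2376 of all 18194 genes (13.1%), in either direction. Arntl, the activator without which the clock stops, had 0.91, 0.49 and 1.25 on the BSS day 30 arrays, against -1.70, -1.06 and -1.34 on the BSS day 7 arrays. Every BSS day 30 array lay above every BSS day 7 array, replicate 2 of day 30 included. The difference was 2.25 (SE 0.25), a 4.75-fold rise at BSS day 30 (limma, adjusted p = 0.0069), and 2.44 without BSS day 30 replicate 2 (adjusted p = 0.00165). A second probe set of the gene had a difference of 0.30. Averaged over both probe sets, Arntl rose by 1.27 (SE 0.13, adjusted p = 0.002 over all genes).

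Of 6 measured members of the activator list, 3 met the thresholds of the study with higher values at BSS day 30 and none with lower ones, where 3.48% of all 18194 genes did so upward. The median difference of the list was 0.68, against -0.04 over all genes, and all 6 members had a positive difference, 5 of them with the rod score as a covariate. Npas2, which can take the place of Clock as the partner of Bmal1, had 0.24, 1.06 and 1.20 at BSS day 30 and -0.24, -0.59 and -0.65 at BSS day 7, so that the groups did not overlap. Its difference was 1.32 (SE 0.25), which did not pass over all probe sets (adjusted p = 0.279), and a second probe set had 0.08. Without BSS day 30 replicate 2 Npas2 passed (1.21, adjusted p = 0.0324), although its limma p before adjustment was higher there, 0.000639 against 8.48e-05. An adjusted p depends on how many other probe sets have a small p, and 1820 were called in that fit. Clock itself had 0.20, 0.20 and 0.51 at BSS day 30 against -0.11, -0.14 and -0.17 at BSS day 7, a difference of 0.45 (SE 0.12) that was under the 1.5-fold limit. Rorb, an activator of Arntl that is also strong in retinal neurons, had 0.87, 0.05 and 1.17 at BSS day 30 and -0.49, 0.14 and -0.14 at BSS day 7. There the groups overlapped through BSS day 30 replicate 2, and the difference of 0.86 (SE 0.38) was 0.26 with the rod score as a covariate. Rora (0.50, SE 0.30) and Arntl2 (0.28, SE 0.24) did not meet the thresholds, and their probe sets disagreed in sign, with -0.22 and -0.04 as the lowest.

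Of the 5 measured Per and Cry repressors, Per2 and Per3 met the thresholds of the study with lower values at BSS day 30, where 1.53% of all genes did so downward, and Per1, Cry1 and Cry2 did not. Per2, a core repressor that is also induced by light, had -0.15, -0.68 and -1.18 at BSS day 30, against 0.18, 0.44 and 0.70 at BSS day 7. All BSS day 30 arrays lay below all BSS day 7 arrays, and the difference was -1.11 (SE 0.26). Per3, a less essential member of the family, had -0.19, -0.42 and -0.33 at BSS day 30 and 0.35, 0.40 and 0.28 at BSS day 7. It was the tightest of these genes within the days, with a difference of -0.66 (SE 0.12, adjusted p = 0.279). Without BSS day 30 replicate 2 the adjusted p was 0.0321, although the limma p before adjustment rose from 8.24e-05 to 0.000625. Per1, which responds to light and to glucocorticoids, had -0.03, -0.49 and -0.30 at BSS day 30 and 0.03, 0.06 and -0.15 at BSS day 7, and these overlapped (-0.25, SE 0.18). Cry1 (0.17, SE 0.18) and Cry2 (0.04, SE 0.12) had small differences, with overlapping groups. The calls of Per2 and Per3 rested on 1 probe set each: all 3 probe sets of Per2 and all 6 of Per3 had negative differences, but the others were under the thresholds, with -0.14 and -0.08 as the weakest, and on the mean over probe sets 0 of the 5 genes met them.

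**Figure D2:**
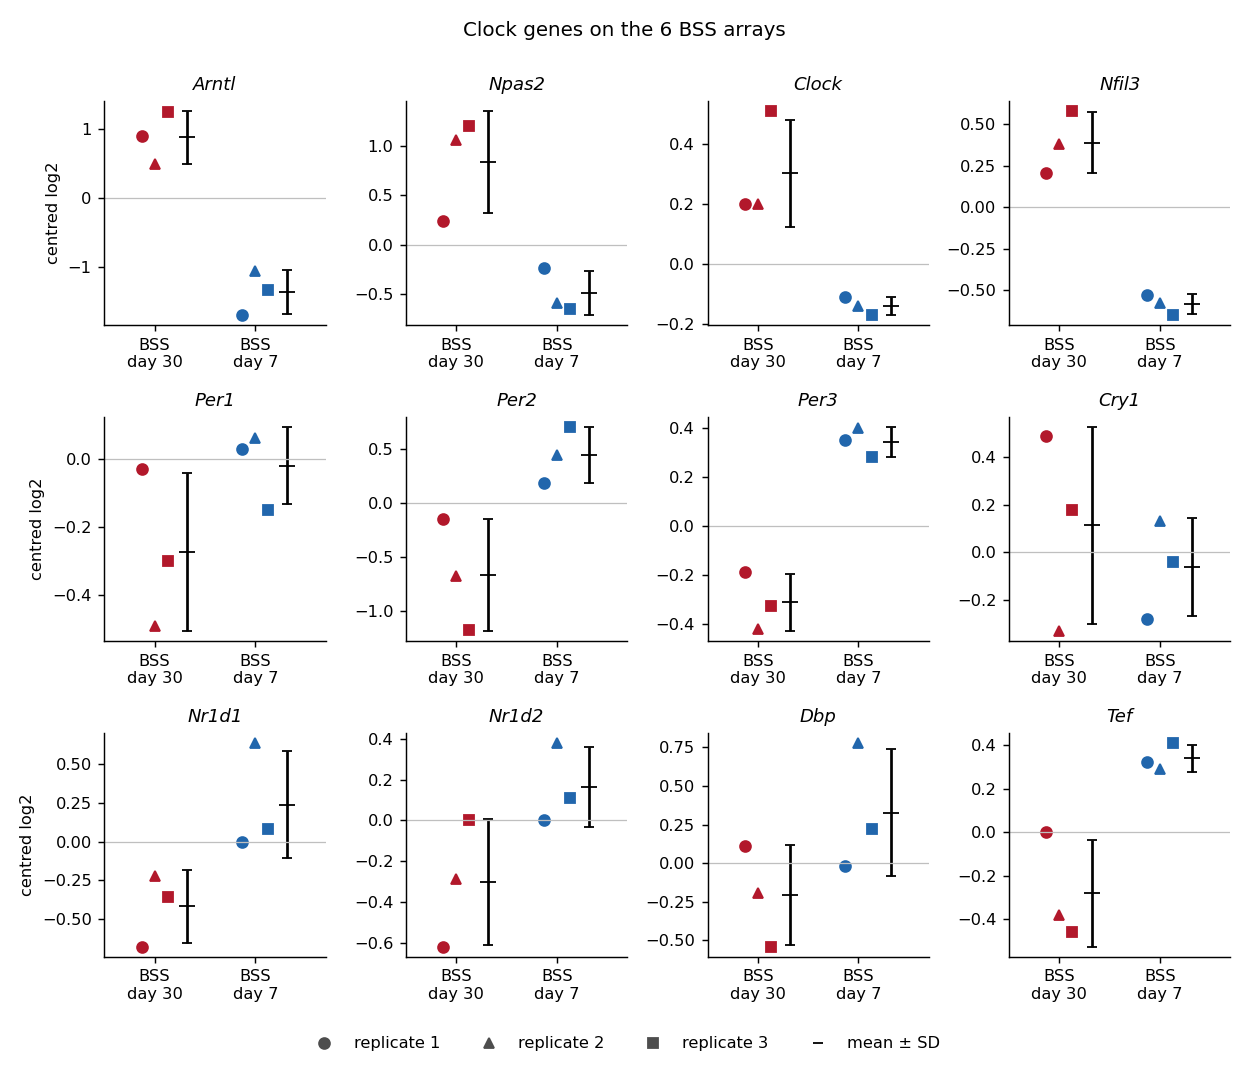
Centred log2 values (y axis, scale differs between panels) of 12 clock genes on the 3 BSS day 30 arrays (red, left) and the 3 BSS day 7 arrays (blue, right), with the mean ± SD in black. Arntl separates the days by 2.25, Npas2, Clock and Nfil3 lie higher on every BSS day 30 array, Per2, Per3, Nr1d1 and Tef lie lower on every one, and Per1 and Cry1 overlap.

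In the output arm of the clock, 1 of 8 measured genes met the thresholds of the study upward and 2 downward, beside 3.48% and 1.53% of all genes, with a median difference of -0.35. On the mean over probe sets 1 did in either direction. The gene with higher values was Nfil3, a repressor of D-box genes, with 0.21, 0.38 and 0.58 at BSS day 30 against -0.53, -0.58 and -0.65 at BSS day 7. The BSS day 7 arrays were close together and well below all BSS day 30 arrays, and the difference was 0.98 (SE 0.20, adjusted p = 0.326). Without BSS day 30 replicate 2 the adjusted p was 0.0319, although the limma p before adjustment rose from 0.000152 to 0.00059. Nr1d1, the repressor Rev-erb alpha, had -0.68, -0.22 and -0.36 at BSS day 30 and 0.00, 0.64 and 0.08 at BSS day 7, a difference of -0.66 (SE 0.17). Tef, an activator of D-box genes, had 0.00, -0.38 and -0.46 at BSS day 30, against 0.32, 0.29 and 0.41 at BSS day 7 (-0.62, SE 0.18). Neither gene overlapped between the days. Dbp (-0.53, SE 0.21) and Nr1d2 (-0.47, SE 0.21) had lower means at BSS day 30 with overlapping arrays and were under the 1.5-fold limit. Hlf (-0.09), the light-responsive repressor Bhlhe40 (-0.23) and its relative Bhlhe41 (-0.01) also overlapped.

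Among 17 measured genes that are known as clock targets, 1 met the thresholds of the study upward and 4 downward, beside 3.48% and 1.53% of all genes. Ppp1r3c, which directs a phosphatase to glycogen, had 0.29, 0.57 and 0.49 at BSS day 30 and -0.60, -0.92 and -0.60 at BSS day 7, a difference of 1.16 (SE 0.35, and 0.17 in its other probe set). Wee1, a kinase that holds back mitosis and is driven by E-boxes, had -0.40, -0.24 and -0.49 at BSS day 30, against 0.28, 0.14 and 0.28 at BSS day 7 (-0.61, SE 0.11, adjusted p = 0.204, and -0.28 in its other probe set). Both genes kept the days apart. Tsc22d3, also a classic target of the glucocorticoid receptor, had -0.78, -0.55 and -0.35 at BSS day 30 and 0.21, 0.08 and 0.28 at BSS day 7 (-0.75, SE 0.25). Of its 4 probe sets 1 met the thresholds, and the weakest had -0.13. Cipc, an inhibitor of Clock, had a difference of -0.65 (SE 0.19) with overlapping groups and 0.14 in another of its 3 probe sets. The remaining gene was Tspan4 (-0.60). After quantile normalization 1 clock target was left past the thresholds downward, Cipc, while Wee1 (-0.55) and Tsc22d3 (-0.60) were not. On the mean over probe sets 1 was left, and with the rod score as a covariate 2 were, without Wee1 (-0.53) and Cipc (-0.50). Ciart, a repressor of the Bmal1 and Clock pair that was looked up after its values were seen, had -0.21, -0.17 and -0.61 at BSS day 30 against 0.14, 0.29 and 0.27 at BSS day 7, which is a difference of -0.57 (SE 0.13), just under the 1.5-fold limit.

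Quantile normalization kept the sign of the clock genes named so far except Bhlhe41 (0.05, and 0.01 after subtraction of array medians), and gave 2.43 for Arntl, 1.91 for Npas2 and -1.70 for Per2, although Arntl was not called there (adjusted p = 0.111). With the rod score as a covariate Arntl was called with a difference of 1.84 (adjusted p = 0.00514), and the differences of Npas2 (1.31), Nfil3 (0.98), Per2 (-1.22) and Per3 (-0.73) stayed past the thresholds of the study. In that fit Cry1 (-0.03), Cry2 (-0.18), Rora (-0.09) and Bhlhe41 (0.18) changed sign.

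The largest differences among the named genes belonged to genes of the neural retina, a tissue that the dissection was meant to remove, and they were carried by 2 of the 3 BSS day 30 arrays. Of 29 measured rod photoreceptor genes, 20 met the thresholds of the study with higher values at BSS day 30, against 3.48% of all genes, and 0 were called after adjustment. The mean over the list, here the rod score, was 3.23, -0.45 and 3.07 on the BSS day 30 arrays, against -1.05, -0.75 and -0.46 on the BSS day 7 arrays. Replicates 1 and 3 of day 30 were far above the BSS day 7 arrays, and replicate 2 lay level with the highest of them. On the steroid arrays the score ran from -1.21 to 2.98 at day 30 and from -1.22 to 1.81 at day 7, so that high scores were not limited to BSS. In bulk tissue, more cells of a type and more RNA per cell cannot be told apart.

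Gnat1, the rod transducin subunit that relays the light signal, had 4.09, -0.96 and 3.99 at BSS day 30, against -2.65, -1.35 and -1.09 at BSS day 7. Its difference of 4.07 had an SE of 1.86. Recoverin (Rcvrn), a calcium sensor of photoreceptors, had 4.63, -0.32 and 4.59 at BSS day 30 and -2.03, -1.51 and -0.70 at BSS day 7 (4.38, SE 1.87), and Nrl, the transcription factor that sets rod fate, had 4.63, -0.43 and 4.44 against -1.53, -1.21 and -0.76 (4.04, SE 1.87). In all 3 genes BSS day 30 replicate 2 sat just above the BSS day 7 arrays while the other arrays of its group were at 3.99 or more. The rule for naming these genes required that it lay above them. Of the 29 rod genes, 11 kept the days apart with higher values at BSS day 30, as did 1018 of all 18194 genes. In Rp1 (4.57, SE 2.13) BSS day 30 replicate 2 was at -0.67, under BSS day 7 replicate 3 at -0.37. The median difference of the rod list was 3.16 with all arrays, 4.52 without BSS day 30 replicate 2, where 26 genes met the thresholds, and is near 0 by construction with the rod score, its own mean, as a covariate. Without BSS day 30 replicate 1 or replicate 3, 1 rod gene met them, and 2, 5 and 7 did without BSS day 7 replicate 1, 2 and 3, although all 29 had a positive difference in each of these fits. Quantile normalization left 10 past the thresholds.

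Cone, interneuron and synapse genes followed the same arrays. Upward at the thresholds of the study were 5 of 13 cone genes, 7 of 10 bipolar cell genes, 6 of 18 genes of amacrine, horizontal and ganglion cells and 10 of 16 synaptic vesicle genes, beside 3.48% of all genes, with median differences of 1.19, 0.80, 0.50 and 1.41. Quantile normalization gave 3, 3, 4 and 4 genes, and without BSS day 30 replicate 1 or replicate 3 each list had 1 or 2. Snap25, a SNARE protein of transmitter release, had the widest difference of all named genes, 5.15 (SE 1.98): it was at 4.82, -0.95 and 5.13 at BSS day 30, against -2.34, -2.35 and -1.76 at BSS day 7. Here BSS day 30 replicate 2 was above the BSS day 7 arrays by less than 1, and the rule for naming Snap25 required that it lay above them. Opn1sw, the short-wave cone opsin, had 4.97, -0.20 and 3.35 at BSS day 30 and -0.07, -0.10 and -0.05 at BSS day 7, and in this gene replicate 2 lay below all BSS day 7 arrays (2.78, SE 0.97). Isl1, a transcription factor of ON bipolar and other inner neurons, had 3.93, -0.27 and 4.34 against -0.83, -1.38 and -1.25 (3.82, SE 1.45). Gad1, which makes the transmitter GABA, had 5.35, -0.87 and 5.59 at BSS day 30 and -1.09, -1.19 and -1.14 at BSS day 7 (4.50, SE 1.97, and 0.39 in its other probe set). The vesicular glutamate transporter Slc17a6 had 3.17, -0.23 and 3.37 against -0.36, -0.48 and -0.26 (2.47, SE 0.75), and was called without BSS day 30 replicate 2 (3.64, adjusted p = 0.0097).

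**Figure D3:**
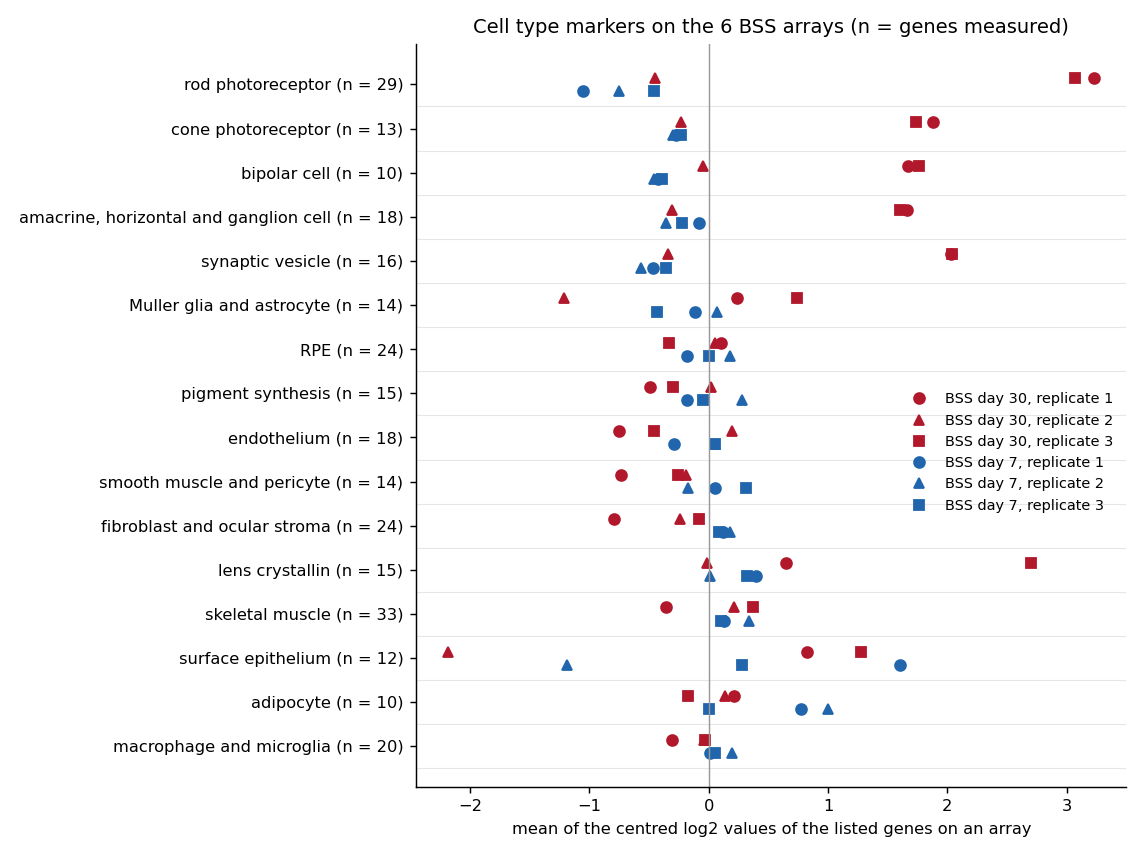
Mean centred log2 value of the listed marker genes on an array (x axis) for 16 lists (y axis, with the number of genes measured), for BSS day 30 (red, upper row of each list) and BSS day 7 (blue, lower row), with a symbol for each replicate. In the photoreceptor, interneuron and synapse lists the day 30 circles and squares stand at 1.60 or more, and the day 30 triangle, replicate 2, stays near the day 7 arrays.

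Of the 17 genes of the melatonin, dopamine and light input list, 3 met the thresholds upward, at a list median of 0.04 with 9 genes higher and 8 lower, and of 18 glutamate receptor genes 3 did, at a median of 0.15 with 11 higher and 7 lower. Over all genes, 3.48% met the thresholds upward. Drd4, the dopamine receptor that photoreceptors use, had 3.70, -1.0 and 3.40 at BSS day 30 and -1.15, -1.20 and -0.86 at BSS day 7, with overlapping groups (3.10, SE 1.31). Adcy1, a calcium-activated adenylyl cyclase with a daily rhythm in the retina, had 1.44, 0.20 and 1.39 at BSS day 30, against -1.27, -0.56 and -0.74 at BSS day 7. Its groups did not overlap, and the difference was 1.87 (SE 0.47), 2.27 without BSS day 30 replicate 2 (adjusted p = 0.0262) and 0.96 with the rod score as a covariate. The neuropeptide Vip (1.42, SE 0.65) was the other gene of the first list past the thresholds. Those of the second list were Gria2 (2.41, SE 0.85), Gria4 (1.03, SE 0.43) and Grm7, a presynaptic brake on glutamate release, which had 0.95, 0.25 and 0.75 at BSS day 30 against -0.21, 0.09 and -0.24 at BSS day 7 (0.77, SE 0.24). Of 14 Müller glia and astrocyte genes 0 met the thresholds, with a median of -0.02 that was 0.01 after quantile normalization. Without BSS day 30 replicate 2 the median was 0.23, 4 met them upward and 1 was called, and with array weights 3 met them. Their list mean was 0.24, -1.21 and 0.74 at BSS day 30 and -0.11, 0.07 and -0.43 at BSS day 7, so that replicate 2 of day 30 was the lowest of the 6 arrays.

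Over all probe sets, 993 of the 995 with higher values at BSS day 30 also met the thresholds without BSS day 30 replicate 2 and 62 did so with the rod score as a covariate, and their median difference was 0.99, 1.42 and 0.31 in the 3 fits. Of the 388 with lower values, 366 and 97 did, with medians of -0.69, -0.88 and -0.48. BSS day 30 replicate 2 lay on the same side of the BSS day 7 mean as the group in 777 of the 995 and in 365 of the 388. That array was part of the means by which these probe sets were picked, so the counts are not an independent check of it. The part of retinal RNA in any single difference was not tested beyond this covariate.

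The 15 named genes with the lowest differences were of mixed kinds. Those described below are joined by Cyp2e1 (-1.36, SE 0.41), a cytochrome that oxidizes small molecules such as ethanol, Lmod2 (-1.21, SE 0.31), an actin nucleator of muscle, the membrane protein gene Ms4a4c (-1.21, SE 0.31), the RNA-binding protein gene Rbm46 (-1.11, SE 0.33) and Mcoln3 (-1.06, SE 0.33), an endosomal cation channel. In all 15 the arrays of the days did not overlap, which the rule for naming them required. Inmt, a methyltransferase for indole amines, had -1.31, -0.43 and -0.94 at BSS day 30, against 0.32, 0.45 and 0.30 at BSS day 7. The groups were far apart relative to the spread at BSS day 7, and the difference of -1.25 (SE 0.18) had the lowest adjusted p of the named genes after Arntl without passing (adjusted p = 0.112, and 0.00165 without BSS day 30 replicate 2). Steap3, an iron reductase of endosomes, had -0.67, -0.13 and -0.55 at BSS day 30 and 0.76, 0.61 and 0.66 at BSS day 7 (-1.13, SE 0.17, adjusted p = 0.116). This probe set was the single one called after quantile normalization (-1.43, adjusted p = 0.0183). Of the 3 probe sets of Steap3, 1 met the thresholds with all arrays, and the weakest had -0.39. Ptgs2, the inducible cyclooxygenase, had -1.36, -0.61 and -0.77 at BSS day 30, against 0.09, 0.31 and 0.63 at BSS day 7 (-1.26, SE 0.24). Its other probe set had -0.22, under the thresholds. Pla2g4a, the phospholipase that feeds this enzyme arachidonic acid, had -0.68, -0.28 and -0.11 against 0.39, -0.07 and 0.57 (-0.65, SE 0.18). Ptgs2 and Pla2g4a were the members past the thresholds among 12 prostaglandin genes, beside 1.53% of all genes downward, and the list median was -0.44. The count was 5 without BSS day 30 replicate 2, beside 731 of all 18194 genes downward in that fit, and limma called 1 of the 5. It was 4 without BSS day 30 replicate 3 or BSS day 7 replicate 2 and 1 without BSS day 30 replicate 1. Of all 18194 genes, 298, 312 and 97 met the thresholds downward in these fits, in that order.

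Edn3, an endothelin that acts on melanocyte and vessel receptors, had -1.34, -0.39 and -1.02 at BSS day 30 and 0.17, 0.74 and 0.21 at BSS day 7 (-1.29, SE 0.26). All 4 of its probe sets met the thresholds. The gene for its receptor, Ednrb, was the single member past the thresholds among 15 pigment genes, beside 1.53% of all genes downward. Ednrb had -0.98, -0.06 and -0.48 at BSS day 30 against -0.11, 0.64 and 0.06 at BSS day 7 (-0.70, SE 0.27), and the groups overlapped. Without BSS day 30 replicate 2, 5 pigment genes met the thresholds downward, beside 731 of all 18194 genes, and 2 were called. The count was 0 without BSS day 30 replicate 1 or BSS day 7 replicate 2. Adm, a vasodilator peptide, had -1.37, 0.10 and -1.14 at BSS day 30, against 0.38, 0.14 and 0.57 at BSS day 7, with replicate 2 of day 30 just under the BSS day 7 arrays (-1.16, SE 0.35). Meox2, a homeobox gene of vessel and mesenchymal cells, had -0.54, -0.03 and -0.20 at BSS day 30 and 0.69, 0.97 and 0.97 at BSS day 7 (-1.13, SE 0.24). Ebf2, a transcription factor of mesenchymal and fat precursors, had -0.42, 0.10 and -0.52 against 0.41, 0.93 and 0.52 (-0.90, SE 0.15, adjusted p = 0.179), though 1 of its 3 probe sets had 0.05. In both genes all BSS day 30 arrays were below all BSS day 7 arrays.

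**Figure D4:**
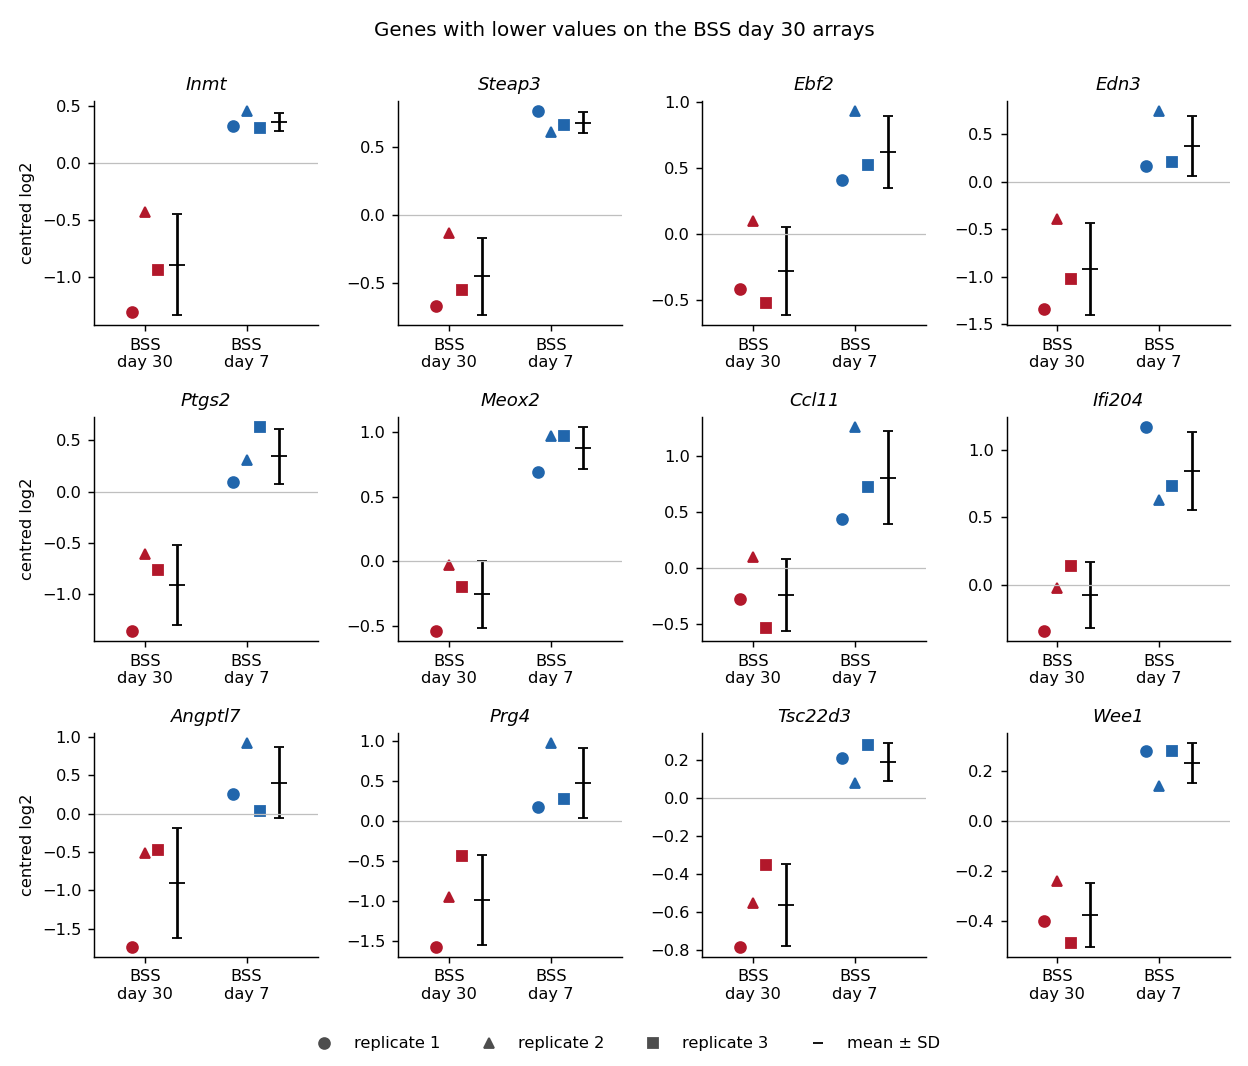
Centred log2 values (y axis, scale differs between panels) of 12 genes with lower values at BSS day 30 (red, left) than at BSS day 7 (blue, right), with the mean ± SD in black. The arrays of the days do not overlap in any of the 12 panels, and the day 30 triangle, replicate 2, is the highest day 30 array in 8 of them, Inmt, Steap3, Ebf2, Edn3, Ptgs2, Meox2, Ccl11 and Wee1.

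Of 24 fibroblast and ocular stroma genes, 9 met the thresholds with lower values at BSS day 30, where 1.53% of all genes did so downward, and 0 with higher ones. They were the fibrillar collagen genes Col1a1 (-0.95, SE 0.34), Col1a2 (-0.68), Col3a1 (-0.77), Col5a1 (-0.74) and Col5a2 (-0.67), the matrix proteins Aspn (-0.73) and Postn (-0.77), the receptor Pdgfra (-0.80) and Prg4, the joint lubricant lubricin. Prg4 had -1.57, -0.95 and -0.44 at BSS day 30 and 0.18, 0.98 and 0.28 at BSS day 7 (-1.47, SE 0.33). The mean over the list was -0.79, -0.24 and -0.08 at BSS day 30, against 0.12, 0.18 and 0.09 at BSS day 7, so that the days did not overlap. The median difference was -0.47 with all arrays. Without BSS day 30 replicate 1 it was -0.31 and 2 genes met the thresholds, and without BSS day 7 replicate 1 it was -0.59 and 5 did. It was -0.41 with the rod score as a covariate, where 7 genes met the thresholds. Of all 18194 genes, 97, 298 and 85 met them downward in these fits, in that order. Angptl7, a secreted protein of ocular stroma and trabecular meshwork, had -1.73, -0.51 and -0.47 at BSS day 30 and 0.26, 0.92 and 0.03 at BSS day 7 (-1.31, SE 0.31). The secreted protein gene Bpifb1 had the lowest difference of the named genes, -2.21 (SE 0.51), with -2.56, -1.22 and 0.09 at BSS day 30 against 1.23, 1.26 and 0.44 at BSS day 7.

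Vessel wall genes were less regular. Among 14 genes of smooth muscle and pericytes, 2 met the thresholds downward, beside 1.53% of all genes. Myh11, the smooth muscle myosin, had -2.39, -0.99 and -0.11 at BSS day 30 and 0.10, -0.29 and 0.17 at BSS day 7 (-1.15, SE 0.47). Its groups overlapped through replicate 3 of day 30, and its other probe set had -0.12. Cnn1 (-0.63, SE 0.29) was the other gene past the thresholds. This count of 2 was 0 without BSS day 30 replicate 1 or BSS day 7 replicate 3 and 5 without BSS day 30 replicate 2 or BSS day 7 replicate 2. Of all 18194 genes, 731 and 312 met the thresholds downward in the latter fits. None of the 18 endothelial genes met them, at a median of -0.30. The endothelial list mean was -0.75, 0.20 and -0.46 at BSS day 30, against -0.29, 0.05 and 0.05 at BSS day 7, and replicate 2 of day 30 was the highest of the 6 arrays. Without that array 9 endothelial genes met the thresholds downward, beside 731 of all 18194 genes, and with the rod score as a covariate the median was -0.10. In the interferon list, 1 of 17 genes met the thresholds downward, beside 1.53% of all genes. Without BSS day 30 replicate 3, 6 did, beside 298 of all 18194 genes in that fit, and all 17 had a lower mean at BSS day 30. With all arrays the gene past the thresholds was Ifi204, a DNA sensor from a family of near copies. It had -0.34, -0.02 and 0.14 at BSS day 30 against 1.17, 0.63 and 0.73 at BSS day 7 (-0.92, SE 0.22). A further 5 interferon genes had lower values without overlap, Ifit2 (-0.49), Gbp3 (-0.52), Ifit3 (-0.41), Rtp4 (-0.37) and Stat2 (-0.23), as did 1358 of all 18194 genes. Ccl11, the eosinophil chemokine eotaxin, had -0.28, 0.10 and -0.54 at BSS day 30 and 0.44, 1.26 and 0.72 at BSS day 7 (-1.05, SE 0.25).

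Of 24 measured RPE genes 0 met the thresholds, with differences between -0.37 and 0.29 and a median of -0.06. The median was -0.10 without BSS day 30 replicate 2, where 1 met them downward, and 0.12 without BSS day 30 replicate 3, where 17 of 24 were higher. Rpe65, the isomerase of the visual cycle, had 0.14, 0.02 and -0.25 at BSS day 30, against -0.06, 0.16 and -0.01 at BSS day 7, and Lrat, which esterifies retinol, had 0.17, -0.02 and -0.79 against -0.18, 0.40 and 0.13. Both genes overlapped between the days, with differences of -0.06 (SE 0.11) and -0.33 (SE 0.26). The mean over the RPE list was 0.10, 0.05 and -0.33 at BSS day 30 and -0.18, 0.18 and 0.00 at BSS day 7. Of 15 pigment genes 14 had a lower mean at BSS day 30, at a median of -0.31 with all arrays and -0.07 with the rod score as a covariate. Mertk, the receptor with which the RPE engulfs outer segments, had a difference of -0.21 (SE 0.25), and 0 of 18 phagocytosis genes met the thresholds.

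Whether the day difference was particular to BSS was tested against the mean of the same difference in the Dex and the TAA groups, which have their own arrays at either day. No probe set passed this test in limma (0 of 45101, smallest adjusted p = 0.973), 1583 passed the 0.05 level before adjustment, beside 2255 to be expected if nothing differed, and 301 met the thresholds of the study (0.667%). Arntl had a difference between the days of 2.25 (SE 0.25) in BSS, 1.86 (SE 0.25) in Dex and 1.43 (SE 0.25) in TAA, and BSS minus the steroid mean was 0.60 with a 95% interval of -0.05 to 1.25. For Npas2 the differences were 1.32 in BSS, 1.86 in Dex and 1.67 in TAA (BSS minus steroids -0.44, interval -1.09 to 0.21), and for Per2 -1.11, -1.42 and -1.21 (0.20, -0.48 to 0.88). Per3 had -0.66 in BSS, -0.98 in Dex and -0.74 in TAA (0.20, -0.12 to 0.53). A smaller or larger change in BSS than in the steroid groups was therefore not detectable for these genes. Alone, the Dex groups gave 4 called probe sets, Arntl, Npas2, Per3 and Ciart, and the TAA groups 1, Saa3.

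By the limma p before adjustment, Per1 came closest to a gap among the genes of the 3 clock lists. Its difference between the days was -0.25 (SE 0.18) in BSS, -0.65 in Dex and -1.04 in TAA, and BSS minus the steroid mean was 0.60 (0.14 to 1.06), which did not pass (limma, adjusted p = 0.973). Cry2 had 0.04 in BSS, -0.35 in Dex and -0.33 in TAA (0.38, 0.06 to 0.69). Rorb, the activator whose BSS arrays overlapped, had 0.86 in BSS, -0.35 in Dex and -0.05 in TAA. Its BSS minus steroid mean was wider, 1.06 (0.06 to 2.07), and did not pass either (limma, adjusted p = 0.973). Outside the clock, Ebf2 had -0.90 in BSS, -0.05 in Dex and -0.24 in TAA (BSS minus steroids -0.75, -1.15 to -0.36), and Steap3 had -1.13, -0.56 and -0.26 (-0.71, -1.16 to -0.27). The smallest p in this test belonged to Saa3, an acute phase protein, which had -0.56, -0.02 and 0.54 at BSS day 30 and 0.13, -0.08 and -0.49 at BSS day 7. Its BSS arrays overlapped, with a difference of 0.13 (SE 0.30), against -0.50 in Dex and -2.98 in TAA (1.88, 1.10 to 2.65). Among the next were Aen, a p53-induced nuclease (0.34 in BSS, -0.30 in Dex and -0.03 in TAA, with the other 3 of its probe sets of the opposite sign in BSS), and Tbc1d24, a vesicle trafficking gene of neurons (0.44, 0.05 and -0.04). Inmt, Ptgs2, Wee1 and Angptl7 had differences of -1.25, -1.26, -0.61 and -1.31 in BSS beside -1.13, -0.95, -0.60 and -1.24 in Dex and -0.91, -1.31, -0.70 and -1.26 in TAA.

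**Figure D5:**
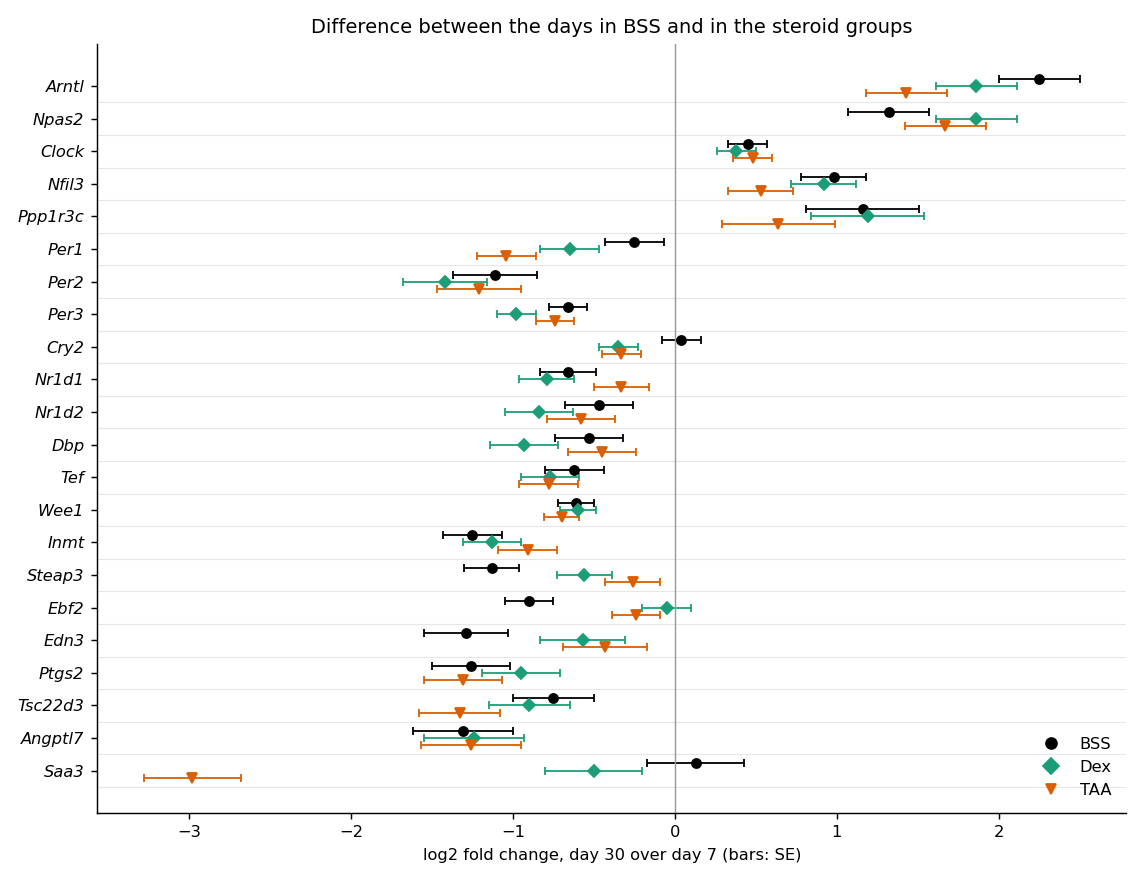
Difference between day 30 and day 7 (x axis, log2 fold change with SE as bars) for 22 genes (y axis) in BSS (black circles), Dex (green diamonds) and TAA (orange triangles). Arntl, Npas2 and Nfil3 lie to the right and Per2, Per3 and Wee1 to the left of 0 in all 3 treatments, while Saa3 is at 0.13 in BSS and -2.98 in TAA.

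The rod list showed how wide such intervals can be. Its median difference between the days was 3.16 in BSS, -0.11 in Dex and 1.35 in TAA, and for Rcvrn BSS minus the steroid mean was 3.55 with an interval of -1.33 to 8.43. Without BSS day 30 replicate 2, 3 probe sets passed the comparison with the steroid groups, of Vax2, a homeobox gene that patterns the ventral retina, of the RNA Vax2os beside it and of Smim17 (each adjusted p = 0.0406). Vax2, whose values were looked up after this result, had 1.49, 0.04 and 1.40 at BSS day 30 and -0.16, -0.26 and -0.05 at BSS day 7, and its difference of 1.14 (SE 0.29) stood against -0.13 in Dex and 0.13 in TAA. With the array included, BSS minus the steroid mean of Vax2 was 1.14 (0.39 to 1.89, adjusted p = 0.973).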

How the data were processed

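RPE/choroid RNA was measured on 18 Affymetrix arrays, of which the 6 BSS arrays are described. The authors read the scans with GeneSpring, summarised them by RMA and set the baseline of each probe set to its median across samples. The deposited values are therefore on the log2 scale and centred, and no probe set had a median farther from 0 than 5e-07. They range from -6.0 to 9.58, were not filtered, and no signal over background or weak-signal filter could be had from them. The labels name a two-cycle labelling protocol and the methods another kit. All columns matched a sample (0 did not).

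The main test was the moderated two-sided test of limma 3.58.1 (R 4.3.3), fitted with a mean for each group over 18 arrays. It had 12 residual and 3.29 prior degrees of freedom, and Benjamini-Hochberg adjustment was over all probe sets. The script was tested on simulated data. Of the probe sets, 34958 had 1 gene symbol, 932 several and 9211 none. A gene was represented by its probe set with the largest SD over the 12 steroid arrays. This choice used no BSS array, but the 12 arrays span both days and enter the comparison with the steroid groups. It can therefore favour probe sets that differ between the days. The rod score is the mean of the rod list on an array. Symbols were matched to RefSeq (GRCm38.p6) for 34754 probe sets and 0 changed. Python 3.11.15 with pandas 2.3.3 and matplotlib 3.10.9 made tables and plots.

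The 38 gene lists hold 665 genes, of which 608 were measured. The comparison, its members and the lists were chosen with earlier results of these data known, and several lists hold genes that the study itself picked on these arrays. Named genes are the 15 with the largest difference in either direction past the adjusted threshold, filled from those at the thresholds of the study whose days did not overlap, all genes of the 3 clock lists, in each other list the 4 largest past those thresholds (or the first 3 in list order), and the 10 with the smallest p in the comparison with the steroid groups. Other list members are given in counts, and those named beside them, Ciart and Vax2 among them, were chosen after their values were seen. Alternatives were the BSS arrays alone, the methods' t-test, a robust prior, array weights, quantile normalization, subtraction of array medians, the probe sets with higher SD, a replicate block, the rod score as a covariate, gene means and leaving out each array.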

Additional observations from a re-analysis of the deposited data

How the results depend on the processing

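The count of 1 called probe set was 0 with the BSS arrays alone, where 3487 had an unadjusted p of 0.05 or less, 3234 with array weights, and 0 to 1820 when 1 array was left out, the highest without BSS day 30 replicate 2. It was 2 without BSS day 7 replicate 3. Arntl had an adjusted p of 0.636 with the BSS arrays alone and 0.751 in the methods' t-test, which called 1 probe set not annotated to a single gene. The count of 1383 at the thresholds of the study was 275 with the methods' t-test, 2870 with array weights, 730 after quantile normalization, 209 with the rod score as a covariate, and 465 to 3103 with 1 array left out. Of these, 71.95% were higher with all arrays, 51.1% after quantile normalization and 75.28% after subtraction of array medians. Lower probe sets were the more frequent without BSS day 30 replicate 3 (40.32% higher) and with the rod score as a covariate (41.15% higher). Subtraction of array medians moved the median of all probe sets by less than 0.1. The comparison with the steroid groups gave 0 to 3 calls with 1 array left out, 3 without BSS day 30 replicate 2 and 0 otherwise. With the rod score as a covariate the sign was the opposite for Gnat1 (-0.05), Nrl (-0.11), Rp1 (-0.17) and Slc32a1 (-0.05). The first 3 are members of the score, so that values near 0 of either sign follow from the construction, and none of the 4 was past a threshold there. Other causes were not tested.

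Replicate numbers are shared between the days. Same-numbered arrays deviated together at correlations of 0.071, 0.144 and 0.032, against -0.143 to 0.133 for arrays of unlike number. Whether same-numbered arrays were handled together cannot be told from these correlations. The fit with the replicate number as a block called 1 probe set, Arntl (adjusted p = 0.0477), gave 1293 at the thresholds of the study and 0 calls against the steroid groups. Of the 142 named genes, 131 kept direction and side of the thresholds with the block, 137 with the BSS arrays alone, 90 in the methods' t-test, 122 after quantile normalization and 94 with the rod score. Signal over background is not in the values, so weak probe sets could not be told from measured ones.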

Other observations

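Markers of other tissues around the eye differed between single arrays of a day. Lens crystallin genes, from the tissue in front of the vitreous, had a positive difference in 15 of 15 measured members at a median of 0.89, and 0 met the thresholds of the study with all arrays, against 10 without BSS day 30 replicate 2 (median 1.46). Their mean was 0.65, -0.01 and 2.70 at BSS day 30, against 0.40, 0.01 and 0.32 at BSS day 7, and BSS day 30 replicate 3 was the highest. Without that array the median was 0.03 and 9 of 15 were positive, and after quantile normalization 13 were. Cryaa, the main alpha crystallin, had 1.56, -0.15 and 4.15 at BSS day 30 and 0.01, 0.01 and 0.95 at BSS day 7. Surface epithelium genes, from cornea and conjunctiva, ranged from -2.18 to 1.28 at BSS day 30 and from -1.19 to 1.60 at BSS day 7 in their list mean, and the keratin gene Krt5 had 1.51, -3.24 and 2.17 against 1.87, -1.92 and 0.52.

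Fat cell genes had means of 0.21, 0.14 and -0.17 at BSS day 30 and 0.77, 1.0 and 0.00 at BSS day 7. Downward, 1 of 10 genes was past the thresholds, Pck1 (-0.62, SE 0.27), beside 1.53% of all genes. The count was 5 without BSS day 7 replicate 3, beside 230 of all 18194 genes in that fit. Of 33 skeletal muscle genes 2 met the thresholds downward, beside 1.53% of all genes, the perinatal myosin Myh8 (-0.62, SE 0.26) and the acetylcholine receptor subunit Chrna1 (-0.61, SE 0.20). There were 0 without BSS day 30 replicate 1, where 26 of the 33 were higher, and 0 with the rod score as a covariate. Macrophage and microglia genes had a lower mean at BSS day 30 in 18 of 20 members, none past the thresholds, at a median of -0.19. In the immediate early list of 24 genes the median was -0.23. Klf6 (-0.66, SE 0.26) and Ptgs2 met the thresholds downward, as did 1.53% of all genes. In this list 4 genes did without BSS day 30 replicate 2 and 1 without BSS day 30 replicate 1 or BSS day 7 replicate 1, while Fos differed by 0.32 (SE 0.79). Cholesterol synthesis (median 0.04, 17 genes), heat shock (0.07, 17 genes) and MHC class II genes (0.01, and -0.08 after quantile normalization, 7 genes) had 0 members past the thresholds.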
